A study of Mus musculus with 48 samples.

Results

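The 6 genes described here encode ezrin, radixin and moesin (Ezr, Rdx and Msn, the ERM family), merlin (Nf2), the scaffold NHERF1 (Slc9a3r1) and a red-cell skeleton protein relative (Epb41l2), which all work where the actin cortex meets the plasma membrane. They were chosen by name and matched by symbol to 6 of the 47643 Ensembl genes listed in each count file. All 6 passed the filter on low counts, and none was at 0 in any technical replicate.

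The data were gene counts of ribosome-bound RNA from the dorsal hippocampus of 3 mice of the line Tg(Aldh1l1-eGFP/Rpl10a) JD130Htz. All 3 mice carried the transgene, in which the astrocyte promoter Aldh1l1 drives a GFP-tagged ribosomal protein, so that an antibody to the tag pulls down ribosomes with their RNA from a tissue lysate. Each mouse gave 1 library of whole astrocytes (Astro, labelled Full Astrocytes) and 1 of perisynaptic astrocytic processes (PAP, thin branches that wrap synapses), and each library came as 8 technical replicates, 48 samples together. No treatment is labelled, age and sex are not given in the sources used here, nor is how PAPs were separated, and the pulldown recovers only RNA that stays with tagged ribosomes or is carried along with them. Libraries from mice without the tag were not analysed here.

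ERM proteins bind membrane proteins and phosphoinositides through an amino-terminal FERM domain and actin filaments through their carboxy-terminal tail. Binding of a phosphoinositide and phosphorylation of a threonine in the tail open the folded, inactive protein. Ezrin is known as a protein of the thin peripheral processes of astrocytes and is used to label them. Merlin shares the FERM domain but restrains growth through the Hippo pathway, and NHERF1 carries PDZ domains and a tail that binds the ERM FERM domain, so that it ties channels and transporters to ezrin.

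The ends of the 3 ERM coding sequences are shown because the members share this actin-binding tail and because counts of related genes depend on how far their sequences differ. Each run holds the last 26 codons and the stop codon of the principal transcript in GENCODE M21 (GRCm38), 5′ to 3′ on the coding strand. Capitals mark the codon of the threonine known to be phosphorylated in the tail, 19 residues before the last one in each protein:
Ezr, chr17:6739303-6739383, minus strand: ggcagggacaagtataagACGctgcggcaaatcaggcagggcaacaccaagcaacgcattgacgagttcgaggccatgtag
Rdx, chr9:52086399-52086479, plus strand: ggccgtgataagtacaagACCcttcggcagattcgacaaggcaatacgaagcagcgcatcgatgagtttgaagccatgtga
Msn, chrX:96166554-96166634, plus strand: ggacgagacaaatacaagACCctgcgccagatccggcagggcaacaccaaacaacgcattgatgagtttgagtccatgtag

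That codon is residue 567 of ezrin, 564 of radixin and 558 of moesin. Of the 81 bases, Ezr shared 61 with Rdx and 68 with Msn, and Rdx shared 63 with Msn. Over the whole coding sequence the identity was 69.9% between Ezr and Rdx, 72.6% between Ezr and Msn and 71.3% between Rdx and Msn, and the longest run of identical bases was 15, 32 and 18. Merlin lay further off, at 56.7% to 58.1% identity with the 3 ERM genes. No annotated transcript of another gene matched Ezr, Rdx, Msn, Nf2 or Epb41l2 over 100 bases at 90% identity or more, and the 1 match of Slc9a3r1, a pseudogene over 115 bases, had 0 counts in all libraries. Ezr overlaps Sytl3 on the opposite strand by 4 bases, and Sytl3 held at most 34 counts in any library.

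The 8 technical replicates of a library were summed, which gave 18707844 to 20293538 counts in Astro and 1829962 to 2980984 in PAP. Levels are CPM, the share of a library's counts scaled by TMM factors. The quasi-likelihood test of edgeR compared PAP with Astro across 14618 genes, and a gene is called where its Benjamini-Hochberg adjusted p was under 0.05. Both compartments came from the same mice, and a second fit held the animal as a block. Over the tested genes the median log2 fold change was -0.53 (-1.63 in the blocked fit, and -0.37 when libraries were scaled by their size alone). Relative to the first of these medians the members stood at 1.98 (Ezr), 3.48 (Rdx), 1.86 (Msn), 1.69 (Nf2), -2.92 (Slc9a3r1) and 0.94 (Epb41l2). Relative to that of the blocked fit they stood at 3.13, 4.51, 2.87, 2.8, -2.2 and 1.9, in the same order; the values below are against 0. A smaller amount of a type of cell part in a sample and less RNA in each of them cannot be told apart in such bulk libraries. With 3 animals in a group, an exact permutation test of a single value between unpaired groups could not go below p = 0.1. The limit within pairs is higher still, so no test of that kind was made.

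Of the 6 genes, Ezr, Rdx and Nf2 rose in PAP and Slc9a3r1 fell, while Msn and Epb41l2 did not pass the test. Among all tested genes 5.92% were called higher and 15.4% lower, 21.3% in all. The members were chosen with earlier results of these data known, so the counts of 3 and 1 of 6 are a description. In the blocked fit 0.91% of all genes were called (0.876% higher and 0.0342% lower), and none of the 6 passed the edgeR threshold after adjustment. An unadjusted p under 0.05 in that fit was found for 4 of the 6, and for 3402 of all 14618 tested genes. All 3 PAP values lay above all 3 Astro values for Ezr, Rdx, Msn and Nf2, which was so for 10.9% of tested genes, and all lay below for Slc9a3r1, which was so for 35.1%. These 5 of 6 members stand beside 46.0% of all tested genes whose groups did not overlap.

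Ezr (ENSMUSG00000052397, chromosome 17, 6738041 to 6782784, minus strand, GRCm38) had 206, 363 and 342 CPM in the Astro libraries of animals 1 to 3, and 847, 745 and 909 CPM in PAP. Every PAP library was above every Astro library, and the lowest Astro value came from animal 1. The fitted log2 fold change was 1.46 ± 0.30 (SE, n = 3 per group), a 2.74-fold higher level in PAP, and the adjusted p by edgeR was 0.0208 (blocked fit 0.206). Within animals the log2 ratio of PAP to Astro was 2.04, 1.04 and 1.41. Ezr varied less between animals in PAP, with a coefficient of variation of 9.93%, than in Astro, with 28%; that difference was not tested.

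Rdx (ENSMUSG00000032050, chromosome 9, 52047173 to 52088735, plus strand) differed more. It had 70.6, 89.6 and 93.2 CPM in Astro, again in the order of the animals, and 934, 602 and 422 CPM in PAP. The groups were far apart, and PAP animal 1 was 2.21 times PAP animal 3. The log2 fold change was 2.95 ± 0.38 (SE), a 7.73-fold higher level in PAP (adjusted p by edgeR 0.0136, blocked fit 0.0845). Within animals the log2 ratios were 3.73, 2.75 and 2.18, so the direction was shared and the size was not.

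Msn (ENSMUSG00000031207, chromosome X, 96096042 to 96168552, plus strand) was the least abundant of the 3. It stood at 24.1, 26.5 and 34.7 CPM in Astro and at 82.7, 96.9 and 35.0 CPM in PAP. PAP animals 1 and 2 were well above the Astro range, and PAP animal 3, at 106 counts with a 95% exact Poisson interval of 28.7 to 42.4 CPM, could not be told from Astro animal 3 at this depth. The log2 fold change of 1.33 ± 0.63 (SE) had an adjusted p by edgeR of 0.219 (blocked fit 0.5). Without PAP animal 3 it was 1.59 with an adjusted p of 0.0476. Such intervals cover counting error only, since reads after amplification are not independent molecules.

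Nf2 (ENSMUSG00000009073, chromosome 11, 4765845 to 4849536, minus strand), the tumour suppressor of the family, had the smallest spread. It stood at 115, 143 and 130 CPM in Astro and at 312, 284 and 276 CPM in PAP, with no overlap and a coefficient of variation of 6.52% in PAP. The log2 fold change was 1.16 ± 0.28 (SE), a 2.24-fold higher level (adjusted p by edgeR 0.029, blocked fit 0.206). The within-animal log2 ratios were 1.44, 0.99 and 1.08. Its call was lost without a filter on low counts (log2 fold change 1.00, adjusted p 0.119).

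Slc9a3r1 (ENSMUSG00000020733, chromosome 11, 115163341 to 115181181, plus strand), whose product binds the ERM proteins, went the other way. It stood at 863, 613 and 810 CPM in Astro, the highest of the 6 genes there, and at 41.3, 26.3 and 142 CPM in PAP. These PAP values rest on 81, 51 and 429 counts. The log2 fold change was -3.45 ± 0.69 (SE), a 10.9-fold lower level in PAP (adjusted p by edgeR 0.0208, blocked fit 0.0659), with log2 ratios of -4.38, -4.54 and -2.51 within animals. PAP animal 3 lay well above the other PAP animals, and without it the log2 fold change was -4.56 (adjusted p 0.00717).

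Epb41l2 (ENSMUSG00000019978, chromosome 10, 25359798 to 25523519, plus strand) encodes a FERM protein of the family that joins spectrin and actin to the membrane. It stood at 129, 87.7 and 99.0 CPM in Astro and at 112, 76.3 and 231 CPM in PAP. Animals 1 and 2 were slightly lower in PAP, with log2 ratios of -0.20 and -0.20, and animal 3 was higher, with 1.22. The log2 fold change was 0.41 ± 0.51 (SE; adjusted p by edgeR 0.682, blocked fit 0.815), and it turned to -0.23 without PAP animal 3.

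**Figure D1:**
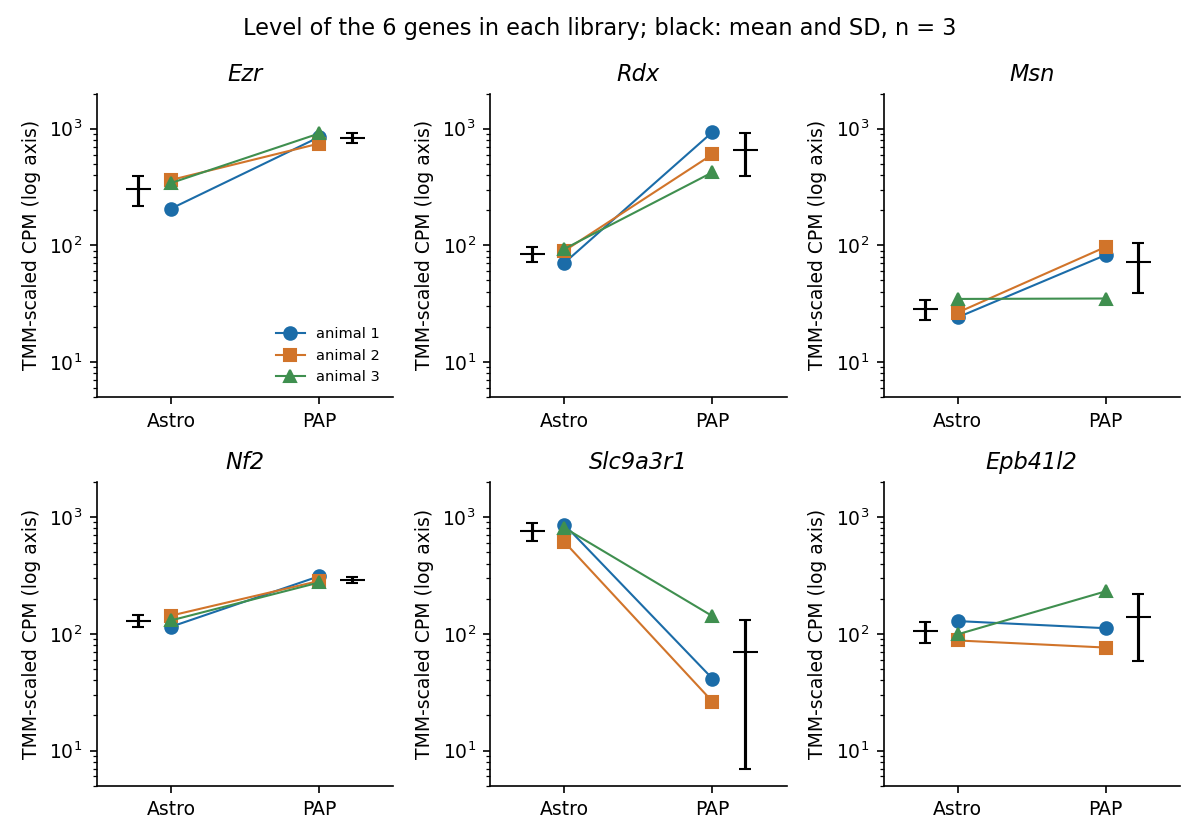
Level of each gene in the 6 libraries, as TMM-scaled CPM on a log axis, with lines joining the compartments of 1 animal and black marks for the mean and SD (n = 3). Lines for Ezr, Rdx and Nf2 all go up, from at most 363, 93.2 and 143 CPM in Astro to at least 745, 422 and 276 CPM in PAP, those for Slc9a3r1 all go down, and animal 3 parts from animals 1 and 2 in Msn and Epb41l2.

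**Figure D2:**
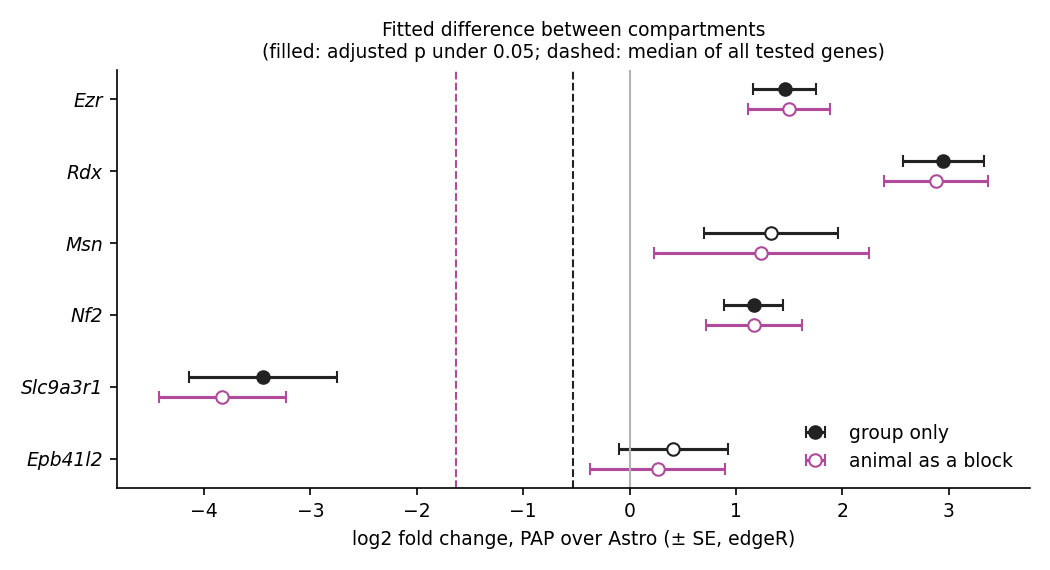
Fitted log2 fold change of PAP over Astro (± SE, edgeR) for the 6 genes, black for the fit of group alone and purple with the animal as a block; filled points have an adjusted p under 0.05 and dashed lines are the medians of all tested genes (-0.53 and -1.63). From the first fit to the blocked one, Ezr goes from 1.46 to 1.49, Rdx from 2.95 to 2.88, Slc9a3r1 from -3.45 to -3.83 and Epb41l2 from 0.41 to 0.27, and no point is filled with the block.

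Each of the 4 calls was lost when any 1 of the 3 Astro libraries was left out, although the log2 fold changes kept their sign. The edgeR adjusted p then ran from 0.0672 to 0.0908 for Ezr, Rdx and Slc9a3r1 and from 0.101 to 0.149 for Nf2. In those fits 115 of 12938, 128 of 12893 and 140 of 12851 tested genes were called in all, against 3115 of 14618 with every library. Without PAP animal 1, 2 or 3 the numbers were 4157 of 16390, 4037 of 16431 and 4586 of 16523. With voom in limma and a variance weight per group, Rdx was the 1 member called, and 3518 of 14618 genes were called in all. The adjusted p by voom was 0.168 for Ezr, 0.113 for Nf2 and 0.198 for Slc9a3r1. Technical replicates 1 to 4 and 5 to 8 taken alone gave 1.44 and 1.38 for Ezr, 2.87 and 2.95 for Rdx, 1.07 and 1.18 for Nf2 and -3.53 and -3.43 for Slc9a3r1.

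Levels of different genes were compared per kilobase of exonic length, from the joined exons of each gene. In Astro, Slc9a3r1 came first with 396 ± 68.4 CPM per kb and Ezr followed with 92.4 ± 25.9 (SD, n = 3). Nf2 at 19.0 ± 2.07 and Rdx at 18.2 ± 2.61 CPM per kb overlapped, and Epb41l2 at 8.88 ± 1.78 and Msn at 4.50 ± 0.88 came last without overlapping. In PAP, Ezr was first with 253 ± 25.2 CPM per kb and Rdx second with 141 ± 56.0, again without overlap. Nf2 at 42.6 ± 2.77, Slc9a3r1 at 36.3 ± 32.6, Epb41l2 at 11.8 ± 6.86 and Msn at 11.3 ± 5.12 CPM per kb each overlapped with the next in the order. Slc9a3r1 thus went from rank 1 to rank 4 and Rdx from rank 4 to rank 2. With the length of the longest transcript in place of the joined exons, Epb41l2 came before Rdx in Astro, and the order in PAP was the same.

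Set against all tested genes on the same per-length scale, Ezr was higher than 92.1% to 95.9% of genes in the Astro libraries and than 98.3% to 98.7% in the PAP libraries. Rdx was higher than 73.2% to 79.2% of genes in Astro and than 94.7% to 98.3% in PAP. Slc9a3r1 was higher than 98.8% to 99.3% in Astro, and in PAP its place ran from 72.8% to 93.5%.

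The makeup of the ERM family within a library does not depend on how libraries are scaled. Per length, Ezr held 76.7%, 82.4% and 80.3% of the summed level of the 3 ERM genes in the Astro libraries, animal by animal, against 54.6%, 61.0% and 74.1% in PAP. Rdx held 18.6%, 14.4% and 15.5% in Astro and 42.7%, 34.9% and 24.4% in PAP, and Msn held at most 4.66% in any library. Every PAP library thus had a smaller Ezr share and a larger Rdx share than every Astro library, with PAP animal 3 closest to Astro.

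In Astro the level of Ezr was 4.12, 5.72 and 5.18 times that of Rdx, and in PAP it was 1.28, 1.75 and 3.04 times. On the log2 scale the mean of this ratio was 2.31 in Astro and 0.92 in PAP, a difference of -1.39. The Rdx to Msn ratio moved the other way, by 1.66, from 2.02 to 3.69. The Ezr to Msn ratio was 4.33 in Astro and 4.61 in PAP, its values overlapped between the groups, and the difference of 0.28 turned to -0.24 without PAP animal 3. The summed level of the family was 81.8, 134 and 130 CPM per kb in Astro and 472, 372 and 373 in PAP.

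**Figure D3:**
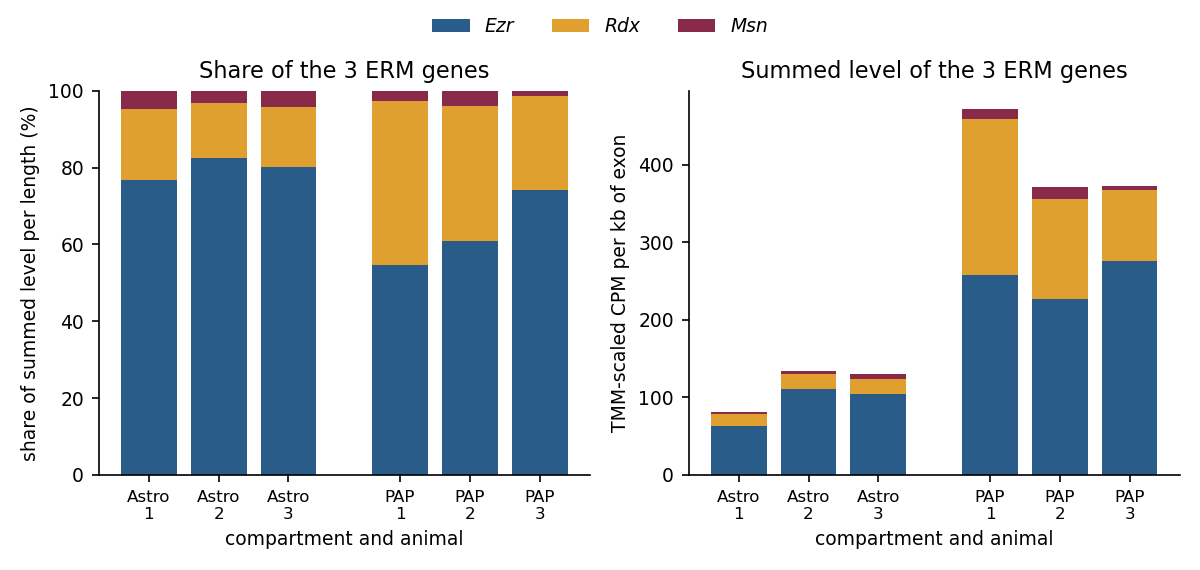
Left, share of Ezr, Rdx and Msn in the summed per-length level of the 3 genes, in percent, for each library; right, the same bars as TMM-scaled CPM per kb of exon. Rdx takes 14.4% to 18.6% in the Astro bars and 24.4% to 42.7% in the PAP bars, and the PAP sums of 372 to 472 CPM per kb stand above the Astro sums of 81.8 to 134.

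Ezr and its scaffold Slc9a3r1 exchanged places in every animal. Per length, Slc9a3r1 was 7.15, 2.89 and 4.05 times Ezr in Astro, and Ezr was 11.99, 16.6 and 3.75 times Slc9a3r1 in PAP. The other scaffolds of the NHERF family were low: Slc9a3r2 stood at 25.3 to 27.8 CPM in Astro and at 12.8, 1.03 and 36.0 CPM in PAP, and Pdzk1 at 3.44 to 6.46 CPM in Astro and at 0, 22.7 and 6.94 in PAP. Neither passed the test (edgeR adjusted p 0.792 and 0.746).

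The genes whose pattern was most like a member's were sought by the root mean square difference in log2 CPM over the 6 libraries, each gene centred on its own mean, among 6287 genes at a mean of 10 CPM or more with counts in every library. For Ezr these were Tmem183a, Chd3 and Mpp6, at 0.13, 0.14 and 0.18, and Nf2 was the 13th nearest, at 0.26. For Rdx they were St6galnac6, Mrpl19 and Kmt5a, at 0.10, 0.18 and 0.18. Ezr was the 567th nearest to Rdx, at 0.80. Msn was closest to Hspa9 at 0.06, Nf2 to Srp9 at 0.06, Slc9a3r1 to Pxmp4 at 0.14 and Epb41l2 to Ap2a1 at 0.16. The 6 libraries fall into 2 compartments, so these distances hold the difference between compartments as well as that between animals.

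Other genes that work with the members were taken from 7 lists of 144 genes, of which 128 were tested. Beside the members, 4 of 122 were called higher (3.28%) and 23 lower (18.85%), against 5.92% and 15.4% of all tested genes. The median log2 fold change of the 128 was -1.02, or -1.0 with genes at 3 counts or fewer in every PAP library put at their bound, against -0.53 for all tested genes. Of the 24 lower calls, members included, 18 were such genes at the floor, which lies at 0.99 to 1.55 CPM in PAP. In the blocked fit 1 of the 128 was called. Without Astro animal 1, 2 or 3 none was in edgeR after adjustment, with 35, 36 and 35 at an unadjusted p under 0.05. At that unadjusted cut stood 2738 of 12938, 2749 of 12893 and 2848 of 12851 tested genes. DESeq2 called 49 of the related genes, and 4756 of 23924 genes in all. With libraries scaled by their size alone, 11 were called higher and 22 lower in place of 7 and 24.

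Among 26 FERM relatives beside the members, Epb41 alone was called higher and 6 were called lower. Epb41, the founder of the red-cell skeleton family, stood at 5.86, 5.34 and 7.46 CPM in Astro and at 95.9, 199 and 25.4 CPM in PAP, a log2 fold change of 4.10 ± 0.90 (SE; adjusted p by edgeR 0.0233, blocked fit 0.206). PAP animal 2 was the highest, and without it the log2 fold change was 3.22 (by voom with all libraries 3.43). The protein is abundant in red cells, whose beta globin gene Hbb-bs stood at 6.22 to 11.1 CPM in Astro and at 218, 46.4 and 0 CPM in PAP animals 1 to 3; the part of such RNA in the Epb41 values was not tested. None of the 6 lower genes exceeded 3 counts in a PAP library. The most abundant were the phosphatase genes Ptpn13, at least 17.0-fold lower, and Ptpn21, at least 7.36-fold lower, and Mylip, at least 7.11-fold lower. Mylip encodes a ligase for lipoprotein receptors. The Ptpn21 call was lost under the 3 other scalings of the libraries (adjusted p 0.051 to 0.054), without a filter (0.078) and without PAP animal 2 (0.0644). Fermt2, encoding kindlin of integrin adhesions, had 229, 189 and 280 CPM in Astro and 7.14, 23.7 and 105 in PAP and did not pass (adjusted p 0.145, but 0.019 without PAP animal 3), nor did the filopodial motor gene Myo10 (0.118, but 0.0227 without PAP animal 2 and 0.0387 by DESeq2).

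Of 18 tested regulators of ERM activation, 4 were called lower and none higher. The list also held the member Rdx, and its median log2 fold change with Rdx was -0.27. Rhoa, a small GTPase that drives actin contraction, stood at 398, 327 and 352 CPM in Astro and at 87.3, 168 and 109 CPM in PAP, a log2 fold change of -1.56 ± 0.35 (SE; adjusted p by edgeR 0.0239, blocked fit 0.206). The kinase gene Akt2 fell by 2.62 on the log2 scale (adjusted p 0.026) and the phosphatase subunit gene Ppp1cb by 1.47 (0.0228), with 0.16 and 0.206 in the blocked fit. Without PAP animal 3 the log2 fold change of Akt2 was -3.49, without PAP animal 2 Akt2 missed the threshold (adjusted p 0.0647), and voom called none of these 3 genes (0.109 to 0.213). Prkcq was the other, with 0 counts in PAP and an at least 9.65-fold lower level. Arhgdia, the inhibitor that holds small GTPases in the cytosol, was close in both compartments, at 493 to 547 CPM in Astro and 418 to 441 in PAP (log2 fold change -0.27 ± 0.21, adjusted p 0.494). Cdc42bpa, a kinase able to phosphorylate the ERM threonine, ranged from 2.55 to 124 CPM in PAP and did not pass (0.564). Slk stood at 32.1, 38.6 and 34.0 CPM in Astro and at 170, 49.5 and 182 CPM in PAP. Its log2 fold change of 1.94 ± 0.61 (SE) did not pass either (adjusted p by edgeR 0.072, blocked fit 0.276).

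Of 17 tested membrane partners of ERM and NHERF proteins, 5 were called lower and none higher, all 5 at the floor in PAP. Among them were Sdc2, Pdgfrb, Egfr and Icam1, at least 120-fold, 15.9-fold, 12.1-fold and 2.44-fold lower. The most abundant partners that did not pass were Cd47, at 82.5 to 130 CPM in Astro and 35.0 to 158 in PAP, and Vcam1, at 74.8 to 134 and 4.64 to 64.8 CPM (adjusted p 0.861 and 0.377). The sign of the Cd47 difference changed from -0.23 to 0.10 on the log2 scale without PAP animal 3. Cd44 stood at 8.43, 7.34 and 1.68 CPM in Astro and at 32.1, 67.5 and 60.5 CPM in PAP. Its log2 fold change of 3.20 ± 0.93 (SE) did not pass (adjusted p by edgeR 0.0559, blocked fit 0.241). The median log2 fold change of the 17 tested partners was -1.44.

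In the merlin and Hippo list, 1 gene of 23 beside Nf2 was called higher and 2 lower. Mob1a, which activates the LATS kinases, stood at 121, 81.4 and 85.0 CPM in Astro and at 1484, 862 and 673 CPM in PAP, a log2 fold change of 3.39 ± 0.40 (SE; edgeR adjusted p 0.00963). It was the 1 related gene that also passed with the block (0.0245). Amotl2 and Tead2 were at 0 counts in all PAP libraries and at least 12.1-fold and 3.10-fold lower; Tead2 missed the threshold without PAP animal 1, 2 or 3 (adjusted p 0.0557 to 0.0579) and without a filter (0.0533), and both had 0.206 in the blocked fit. Taok1 did not pass (adjusted p 0.0891, but 0.0264 without PAP animal 1 and 0.0454 by DESeq2). Wwc1 did not either (0.608); it stood at 0, 0 and 190 CPM in PAP against 221 to 293 in Astro, and it passed without PAP animal 3 (0.00599) and by voom (0.0331).

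The spectrin skeleton, which Epb41 proteins tie to actin, had 1 gene higher and 1 lower of 16. Sptbn1, a beta spectrin, stood at 31.2, 20.4 and 24.1 CPM in Astro and at 115, 462 and 56.5 CPM in PAP (log2 fold change 3.07 ± 0.85, SE; edgeR adjusted p 0.0486). Add1, the alpha adducin that caps actin, fell by 1.49 on the log2 scale (adjusted p 0.047), and both had 0.206 in the blocked fit. PAP animal 2 was the highest for Sptbn1, and without it the log2 fold change was 1.70; it was 2.47 in the blocked fit and 2.34 by voom. The Sptbn1 call was lost without PAP animal 1 (0.0526) or 2 (0.0696), and that of Add1 without PAP animal 2 (0.0713) or 3 (0.0586), under the 3 other scalings (0.0576 to 0.0797) and at equal depth (0.0947). Both were also lost without a filter (0.0759 for Sptbn1 and 0.0629 for Add1), at a mean of at least 100 counts (0.0526 and 0.1) and by voom (0.0759 and 0.332). Ank2 and Tmod2 did not pass (0.133 and 0.24), but did without PAP animal 3 (0.0192 and 0.013).

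Of 21 other linkers between membrane and actin, 1 was called higher and 5 lower. Vcl, encoding vinculin of cell adhesions, stood at 86.0, 64.4 and 93.3 CPM in Astro, had at most 0.33 CPM in PAP and was at least 59.9-fold lower (adjusted p by edgeR 0.0152, blocked fit 0.11). Dmd, encoding dystrophin of the endfoot membrane, had 141, 66.1 and 102 CPM in Astro and 1.53, 3.61 and 3.30 CPM in PAP, a log2 fold change of -5.18 ± 0.74 (SE; adjusted p 0.0177, blocked fit 0.177, voom 0.0574). Myo1e was at least 13.2-fold lower. Dst, a giant linker of filaments, was higher, at 6.10 to 15.8 CPM in Astro and 49.6 to 112 in PAP (log2 fold change 2.83, adjusted p 0.0365, blocked fit 0.219), and missed the threshold at equal depth (0.0632), without a filter (0.087) and by voom (0.104). Ilk and Myo6 did not pass (0.16 and 0.749).

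**Figure D4:**
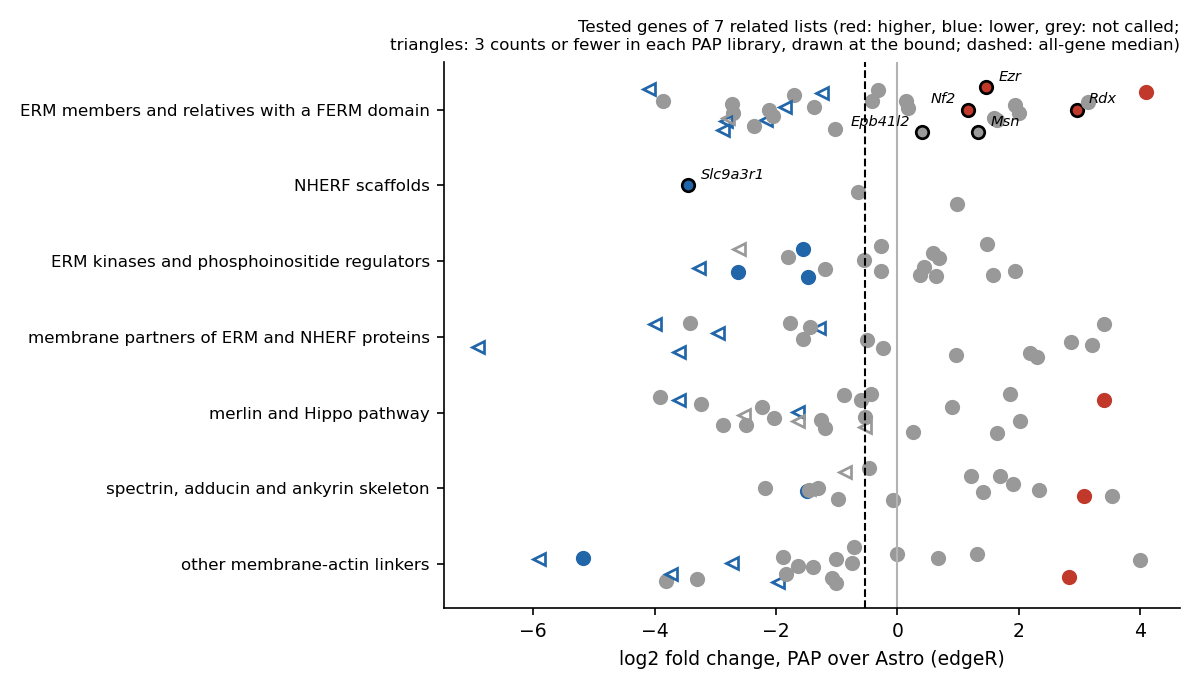
Log2 fold change of PAP over Astro (edgeR) for each tested gene of the 7 lists, with members outlined in black, each shown in 1 list; open triangles are genes with 3 counts or fewer in every PAP library, drawn at their bound. Blue lower calls outnumber red higher calls, 24 to 7 over the 128 genes, most of the lower ones are triangles, and Ezr, Rdx and Nf2 are 3 of the 7 red points.

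Markers of cell types were read beside these results. The 15 astrocyte markers summed to 25515 to 34475 CPM in Astro and to 4019, 9283 and 15607 CPM in PAP animals 1 to 3, with 5 called lower, none higher and none at 0. None of the 15 was called in the blocked fit, and leaving out 1 library gave 0 to 11 calls. The B-lineage and blood list went the other way: its 12 genes summed to 28.5 to 52.6 CPM in Astro and to 3617, 1879 and 1491 CPM in PAP, and 3 of 9 tested were called higher, namely Jchain, Mzb1 and Ms4a1, of which Jchain and Mzb1 passed in every alternative fit. The Ms4a1 call was lost without any 1 Astro library (adjusted p 0.0717 to 0.193), without PAP animal 1 (0.0605) or 2 (0.07), in the blocked fit (0.206), by voom (0.17) and without a filter (0.0619). Of the 12 listed genes 3 had no count in any PAP library, among them Cd79a and Ptprc. PAP animal 1 had the highest Rdx, the lowest astrocyte sum and the highest B-lineage and blood sum, and PAP animal 3 had the lowest Rdx, the highest astrocyte sum and the lowest B-lineage and blood sum. Nf2, at 312, 284 and 276 CPM in PAP animals 1 to 3, had the same order as Rdx. Ezr and Msn had other orders, with Ezr at 847, 745 and 909 CPM and highest in PAP animal 3, and Msn at 82.7, 96.9 and 35.0 CPM and highest in PAP animal 2. Slc9a3r1 and Epb41l2 were also highest in PAP animal 3. ERM genes are also expressed by blood cells, and the part of either list in the results was not tested.

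Of the 10 microglia markers tested, 3 were lower and none higher, with sums of 48.2 to 108 CPM in Astro and 124 to 220 in PAP, and 6 of 14 listed genes at 0 in PAP, among them P2ry12, Tmem119 and Cx3cr1, the 3 called lower. All 3 calls were lost in the blocked fit (adjusted p 0.206 to 0.207), that of P2ry12 without any 1 Astro library (0.0818 to 0.1), that of Tmem119 without a filter (0.0533), and that of Cx3cr1 without a filter (0.0567) and without PAP animal 2 (0.051) or 3 (0.0534). Other genes of the list made up the PAP sums of 190, 220 and 124 CPM in animals 1 to 3. Ctss stood at 3.76 to 11.3 CPM in Astro and at 121, 188 and 2.64 CPM in PAP. Cd68 stood at 0 to 1.56 and at 7.65, 0 and 43.0 CPM, and neither passed (edgeR adjusted p 0.131 and 0.271). In PAP animal 3 most of the sum came from genes not named here. Endothelial markers summed to 45.7 to 91.3 and 16.0 to 107 CPM, with 1 of 5 tested lower and 6 of 14 listed at 0 in PAP. Cldn5 and Cdh5 are among these 6 and had at most 1.64 and 0.508 CPM in Astro, while Ly6c1 had 1.45 to 1.88 CPM in Astro and 23.0, 3.09 and 12.9 CPM in PAP and Egfl7 1.45 to 4.64 and 56.1, 0 and 0.661 CPM (adjusted p 0.09 and 0.484). Mural cell markers summed to 25.99 to 49.8 and 5.10 to 28.7 CPM, with 1 of 5 lower. That gene was Pdgfrb, which is also counted among the membrane partners above, and the part of mural cell RNA in its values was not tested. Neuron markers summed to 1257 to 1985 and 604 to 1648 CPM, with 1 of 15 higher and 2 lower, and oligodendrocyte markers to 1126 to 1150 and 612 to 1240 CPM, with 1 of 14 lower. The ependymal and choroid plexus list ranged most within a group, from 2592 to 20308 CPM in Astro, where animal 2 was highest, and from 662 to 6698 in PAP, with 3 of 11 lower. No call of the neuron, oligodendrocyte, endothelial, mural or ependymal lists was kept in the blocked fit. Choroid plexus is rich in ezrin. Over animals 1 to 3 the list summed to 2592, 20308 and 4662 CPM in Astro, beside 206, 363 and 342 CPM of Ezr, and to 662, 6513 and 6698 CPM in PAP, beside 847, 745 and 909 CPM of Ezr. Ezr was highest with the list in Astro animal 2 and PAP animal 3, while PAP animal 1 had the lowest sum and more Ezr than PAP animal 2; the part of this list in the Ezr values was not tested.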

How the data were processed

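Ribosome-bound RNA was measured in 6 libraries, 1 per mouse and compartment, each deposited as 8 files of raw counts per gene; per the labels' protocols it was amplified with a SMART-Seq kit and made into Nextera XT libraries, and molecular identifiers are not mentioned. The submitters' processing notes name bcl2fastq 2.18.0.12, Trim Galore 0.4.1, STAR 2.5.2b, SAMtools and HTSeq 0.5.3 and the build mm10; strand setting and annotation release are not given in the sources used here. Symbols, lengths and coordinates came from GENCODE M21 on GRCm38, the same build, in which 99.12% of IDs were found. Counts were summed over technical replicates and tested with edgeR 4.0.16 in R 4.3.3 (filterByExpr, minimum count 10, TMM, group only, Benjamini-Hochberg over all tested genes). Alternatives were the animal as a block, other scalings and filters, DESeq2 1.42.0, voom in limma 3.58.1 with a variance weight per group, equal depth, each set of technical replicates and leaving out each library. The code was tested on simulated counts. Sequences were compared with Biopython 1.88 and blastn 2.17.0.

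Both compartments came from the same animals, which is where the pairing comes from; across genes, the deviations of an animal's Astro and PAP libraries from the means of their groups had correlations of -0.0228 to 0.0325. The members, lists and tests were chosen with earlier results of these data known. Beside the members, each list is named by its most abundant genes: up to 3 called in each direction and 2 not called. Prkcq, Slk, Icam1, Cd44, Hbb-bs and the microglia, endothelial and blood markers in the text were named after their values were seen. Some genes of the lists enter the counts and are not reported here by name. Fold changes of genes with at most 3 counts in every PAP library are bounds against the mean floor of 3 counts per library.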

Additional observations from a re-analysis of the deposited data

How the results depend on the processing

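PAP libraries held fewer counts than Astro libraries, and 3 animals a group limit each test. Of the 17 alternatives, 12 left the number of members called within 1.5 times of 4. With the replicate block, which pairs the compartments of an animal, 0 members and 1 related gene were called by edgeR; Ezr stood at 1.494, Rdx at 2.881, Nf2 at 1.168 and Slc9a3r1 at -3.828 on the log2 scale, with adjusted p of 0.206, 0.0845, 0.206 and 0.0659. By voom with a variance weight per group 1 member and 3518 of all 14618 tested genes passed, and Ezr (1.512), Nf2 (1.163) and Slc9a3r1 (-3.644) did not. Without a filter Nf2 was at 0.997 and missed the threshold. Related genes numbered 31 in the fit reported, 19 at a mean of at least 100 counts and 49 by the Wald test of DESeq2. Over all genes the calls numbered 3115 of 14618, 1414 of 10084 and 4756 of 23924, in the same order. Leaving out 1 library gave 0 to 5 members and 0 to 45 related genes, while calls over all tested genes ran from 115 without Astro animal 1 to 4586 without PAP animal 3. Both counts were 0 without each Astro library. There 4 members kept an unadjusted p under 0.05 in edgeR, as did 2738 of 12938, 2749 of 12893 and 2848 of 12851 tested genes without Astro animal 1, 2 or 3. The log2 fold changes then ran from 1.236 to 1.633 (Ezr), 2.56 to 3.119 (Rdx), 0.986 to 1.591 (Msn, which passed without PAP animal 3), 1.07 to 1.276 (Nf2), -4.56 to -3.115 (Slc9a3r1) and -0.227 to 0.646 (Epb41l2, which changed sign without PAP animal 3). The Ezr to Msn ratio ran from -0.241, without PAP animal 3, to 0.637. Other directions of the 6 genes were kept. Among the related genes named, Pdzk1 changed sign with the block (-0.245), without PAP animal 2 and by voom (-0.538 each), and Cd47 without PAP animal 3 (0.1). The causes were not tested.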

Other observations

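The technical replicates of a library were split by their number, and for Rdx the CPM of replicates 5 to 8 was higher than that of replicates 1 to 4 in 6 of 6 libraries, by a ratio of 1.10 to 1.19. Ezr was lower in replicates 5 to 8 in 6 of 6 libraries, with ratios of 0.992, 0.974 and 0.962 in Astro and 0.901, 0.912 and 0.987 in PAP, so the Ezr to Rdx ratio differed between the sets of replicates in the same direction in each library. Slc9a3r1 was also lower in Astro, with ratios of 0.932, 0.931 and 0.922 in animals 1 to 3, while its PAP ratios were 0.865, 1.17 and 1.01. What the replicate numbers stand for is not given in the sources used here. The difference between PAP and Astro in the log2 ratio of Ezr to Rdx was -1.32 in replicates 1 to 4 and -1.46 in replicates 5 to 8.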
